A study of Homo sapiens with 6 samples.

Results

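CTCF peaks around MYC and its neighbours at 8q24 were described in HCT-116, an established human colon cancer cell line. The members were all CTCF peaks on chromosome 8 between 127.5 and 129.2 Mb (hg19), a stretch of 1.7 Mb that runs from FAM84B over CCAT1 and MYC to PVT1. They were chosen by position alone. This stretch held 31 of the 57935 peaks of clone D3, 25 of the 39434 peaks of clone E4 and 33 of the 38645 peaks of wild-type cells (WT). Overlapping peaks were merged into regions across the lists, which gave 43 regions of 60235 in the whole genome.

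WT is labelled wild type, while D3 and E4 are each a clone labelled as carrying a CTCF mutation. Its position is not stated in the labels, and the title names a CTCF site far from MYC and the gating of this gene by WNT signalling. All cells were grown untreated in McCoy's 5A medium with serum. Each population had 1 CTCF library, so that no difference below has a replicate check and no p-value is given. A difference between D3 or E4 and WT may therefore belong to 1 clone or 1 library, which cannot be told apart from the mutation. The WT library served for both comparisons. Samples without antibody exist for each population and were not analysed here.

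CTCF is a zinc-finger protein that binds insulators and, with cohesin, anchors chromatin loops. MYC encodes a transcription factor of cell growth and is a common oncogene that is also a target of WNT signalling in the colon. It has few protein-coding neighbours: FAM84B lies far upstream, and between them POU5F1B is a retrogene derived from POU5F1, a stem cell factor. Most other genes of this stretch are long non-coding RNAs. CCAT1 and CCAT2 are named for colon cancer, CASC8 and CASC19 for cancer susceptibility, and PVT1 follows directly downstream of MYC. Enhancers in this stretch contact the MYC promoter over long distances.

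Of the 43 regions, 22 (51.2%, exact 95% interval 35.5 to 66.7) were called in D3, E4 and WT alike, against 53.9% of all regions. A further 9 regions were called in WT only (20.9%, 10.0 to 36.0), where 2.37% of all regions were. D3 alone had 8 regions (18.6%, against 26.1% of all regions), and E4 alone had 3 (6.98%, against 1.45%). D3 and WT shared 1 region without E4 (2.33%, against 6.62%). No region was called in both clones without WT, although 9.31% of all regions were. The intervals cover counting error only. WT-only regions also made up 10.8% of the 1058 regions of chromosome 8 beyond 100 Mb outside this stretch, so that their high share extended past MYC and its neighbours. In the 5 Mb before the stretch they were 15 of 161 regions, and in the 5 Mb after it 3 of 103. Regions of both clones without WT were also rarer nearby than genome-wide. They made up 2.46% of the same 1058 regions, 6 of 161 in the 5 Mb before the stretch and 3 of 103 in the 5 Mb after it.

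**Figure D1:**
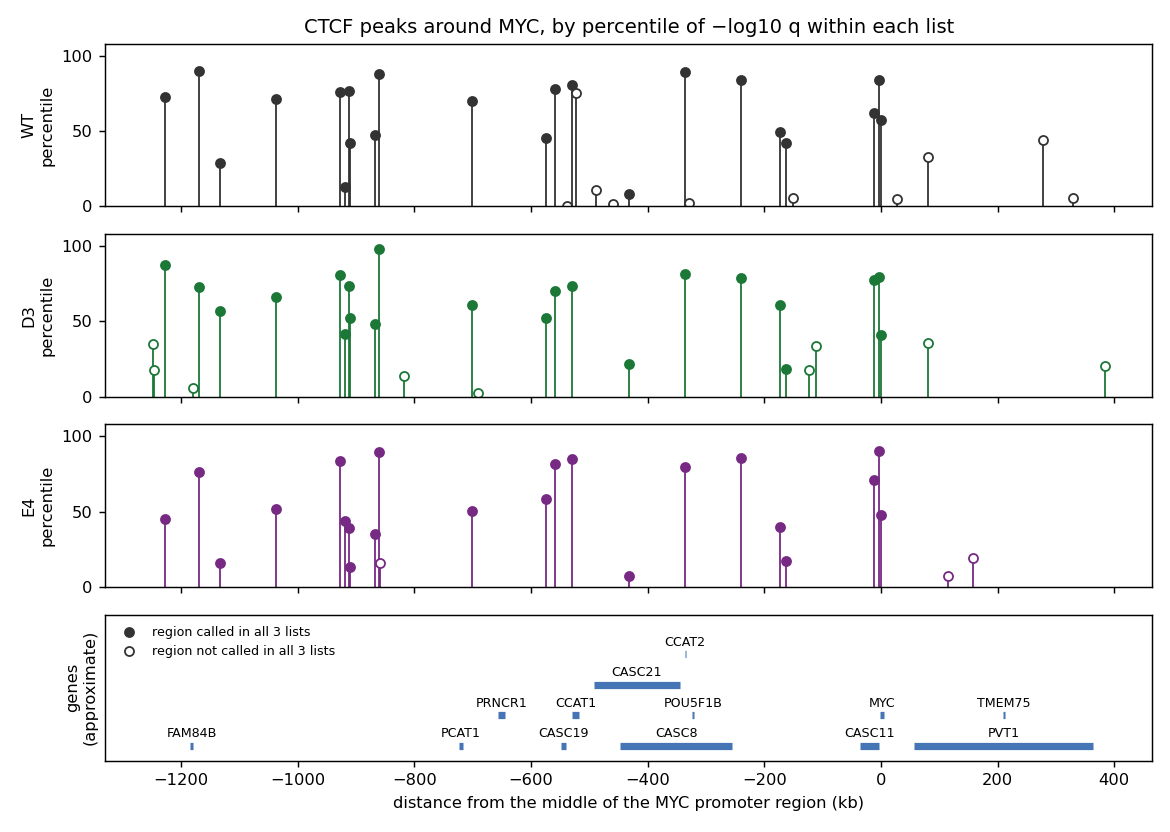
CTCF peaks of WT, D3 and E4 along the stretch. The x axis gives the distance from the middle of the MYC promoter region in kb, and the height of each line gives the percentile of the peak's −log10 q within its own list. Filled points are the 22 regions called in all 3 lists, open points the other 21, and bars at the bottom show approximate gene positions. Filled points are absent from PVT1, and open WT points begin beside CCAT1.

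Most WT peaks without a clone counterpart were weak ones. Strength was read from the authors' −log10 q per peak, which ranks peaks within 1 list but cannot be compared between lists. D3 overlapped 24 of the 33 WT peaks (72.7%, 54.5 to 86.7), where it overlapped 95.9% of the whole WT list. E4 overlapped 23 of 33 (69.7%, 51.3 to 84.4), against 85.7%. Neither clone overlapped 9 of 33 (27.3%, 13.3 to 45.5), against 3.69%. At −log10 q values of at least 5, WT had 17 peaks and both clones overlapped 16 of them, where 98% of all such WT peaks were overlapped by both. The exception was the CCAT1 peak described below, which neither clone overlapped. It was 1 of 17 (5.88%, 0.149 to 28.7), against 6 of 20501 such peaks in the whole WT list (0.029%). Of the 16 WT peaks under 5, neither clone overlapped 8 (50.0%, 24.7 to 75.3), against 7.83% of all such WT peaks. In the other direction, WT overlapped 23 of 31 D3 peaks (74.2%, against 63.1% of all D3 peaks) and 22 of 25 E4 peaks (88.0%, against 83.4%). Weak peaks made up similar shares here and genome-wide. Values under 5 were found in 8 of 31 D3 peaks (32.5% of the whole list), 7 of 25 E4 peaks (34.1%) and 16 of 33 WT peaks (47%).

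All WT-only regions of the stretch lay from CCAT1 onwards. The side of FAM84B, up to 10 kb before CCAT1, held 19 regions, of which 13 were called in all 3 lists, 5 in D3 only and 1 in E4 only. None of these 19 was called in WT only. From CCAT1 onwards, 9 of 24 regions were WT only: 2 at CCAT1, 3 over CASC8, 1 upstream of MYC and 3 on the side of PVT1. Of the 13 genes listed for this stretch, 10 had a region within 10 kb. PCAT1, PRNCR1 and TMEM75 had none in any list.

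FAM84B, the protein-coding gene at the far end, had 2 regions within 10 kb. The first, chr8:127570502-127571003, overlapped the 5′ end of the gene as placed here and was called in D3 only. This weak peak of 502 bp (fold enrichment 3.30, −log10 q 1.90) stood at the 5.99th percentile of D3. Fold enrichment is the authors' ratio of signal to the peak caller's own background. The nearest peak lay 7.68 kb away in WT and 7.85 kb away in E4. The second region, chr8:127578680-127580332, lay upstream of the gene's 5′ end and was called in every list. Its percentile was 90.3 in WT (fold 9.26, −log10 q 14.7), 72.8 in D3 (fold 6.24, −log10 q 16.9) and 76.3 in E4 (fold 10.2, −log10 q 15.8). It was the strongest WT peak of the stretch.

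Lists of different length give percentiles that do not compare directly, so regions called in all 3 lists were also ranked among the 32495 such regions of the genome. On this scale the region beside FAM84B stood at the 88.6th percentile in WT, the 52.1st in D3 and the 71.4th in E4. WT was thus 36.5 points above D3 and 17.2 points above E4. By fold enrichment in place of −log10 q the gap to D3 was 71.2 points and the gap to E4 11.6. Both clones stood below WT on either measure, and D3 stood lowest.

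Between FAM84B and CCAT1 lies a stretch without protein-coding genes, and it carried 11 further regions of all 3 lists. The strongest of them, chr8:127888388-127889677, lay 860 kb before the MYC promoter. It reached the 98.2nd percentile in D3 (fold 16.6, −log10 q 51.6), the 89.4th in E4 (fold 13.6, −log10 q 24.7) and the 87.7th in WT (fold 8.62, −log10 q 13.3). Among regions of all 3 lists D3 stood 11.3 points above WT there, and E4 1.67 points above WT. This was the largest difference in favour of D3 in the whole stretch. A weak E4 peak, chr8:127890852-127891172, followed 1.17 kb after the WT peak, at the 16.1st percentile of E4.

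A cluster of 4 regions stood between 927 and 910 kb before the MYC promoter, and its members differed from each other. In chr8:127836188-127837322 WT stood at the 73.0th percentile of shared regions, D3 at the 53.0th and E4 at the 28.4th. The gap of 44.6 points between WT and E4 was the largest of that clone. In its neighbour chr8:127838661-127840305 WT stood at 33.6, D3 at 21.1 and E4 at 6.02. The order was opposite in chr8:127829164-127830222, where WT stood at 6.79, D3 at 10.9 and E4 at 33.5. There E4 was 26.7 points above WT, its largest difference in that direction. The remaining one, chr8:127821752-127822919, gave 72.2 in WT, 66.2 in D3 and 80.3 in E4. Regions a few kb apart thus ranked higher in WT or higher in E4. At chr8:127881047-127882330, the next region towards MYC, both clones stood below WT, with 39.1 in WT, 17.0 in D3 and 24.2 in E4.

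The outermost shared region, chr8:127521866-127523273, on the far side of FAM84B, also divided the clones. It stood at 67.8 in WT, 77.7 in D3 and 34.9 in E4, and within the D3 list it was the second strongest peak of the stretch (fold 11.8, −log10 q 27.2, 87.4th percentile). E4 was 32.9 points below WT and D3 9.89 points above it. At chr8:127615932-127616841 D3 was again above WT, by 7.38 points, and E4 below it, by 12.6. At 2 further regions both clones stood below WT. At chr8:127711004-127711964 the percentiles were 66.8 in WT, 41.7 in D3 and 42.1 in E4, and at chr8:128046896-128048195 they were 64.8, 32.9 and 40.6.

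Near CASC19, the last shared region before CCAT1 was chr8:128190338-128191668. Its percentile among shared regions was 74.5 in WT, 47.9 in D3 and 77.8 in E4. D3 was 26.5 points below WT and E4 3.38 points above it. At chr8:128174956-128176634, WT stood at 36.9, D3 at 21.5 and E4 at 49.9. Ranked by fold enrichment, E4 was 31.3 points below WT at the CASC19 site, so that the order of WT and E4 there depended on the measure.

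At CCAT1, WT had a peak at chr8:128226838-128227809 (−log10 q 9.39, 75.4th percentile) with no counterpart in either clone, the strongest of the 9 WT-only regions. A weak WT peak at chr8:128210672-128211467 had none either. The region between them, chr8:128218769-128221305, was called in every list. On the shared scale it stood at 77.2 in WT, 53.6 in D3 and 81.85 in E4. D3 was 23.7 points below WT and E4 4.61 points above it, as at the neighbouring CASC19 site.

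CASC8, a long non-coding RNA gene that spans CCAT2, held 3 regions within 10 kb, 2 of them called in all lists. The strong one, chr8:128412434-128414866, covered CCAT2, 336 kb before the MYC promoter. It stood at the 89.4th percentile of WT (fold 8.95, −log10 q 14.1), the 81.8th of D3 (fold 11.0, −log10 q 22.4) and the 79.6th of E4 (fold 10.3, −log10 q 17.4). It ranked 2 among the WT peaks of the stretch and 3 among the D3 peaks. It was also broad in every list, with 2008 bp in WT, 2328 bp in D3 and 2322 bp in E4. On the shared scale both clones stood below WT here: 87.5 in WT, 67.7 in D3 and 75.3 in E4.

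The other shared CASC8 region, chr8:128317068-128318295, was the weakest of WT among the 22 and hardly differed in rank. It stood at 3.78 in WT, 1.997 in D3 and 2.71 in E4. The third, chr8:128420679-128421586, was called in WT only. It lay within 10 kb of POU5F1B, for which it was the one region found, and stood at the 1.93rd percentile of WT (−log10 q 1.36). The nearest D3 peak was 5.92 kb away and the nearest E4 peak 5.81 kb. Over CASC21, whose approximate span overlaps CASC8, WT had a further pair of weak peaks that the clones lacked. These were chr8:128261309-128261598 (−log10 q 2.01) and chr8:128289594-128289903 (−log10 q 1.31).

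Between CASC8 and MYC lay 6 regions, of which 3 were shared. The strongest, chr8:128508329-128509476, lay 240 kb before the MYC promoter and ranked 3 among the E4 peaks of the stretch. It stood at the 84.0th percentile of WT (fold 7.59), the 79.0th of D3 (fold 10.9) and the 85.7th of E4 (fold 11.5). On the shared scale WT (81.2) and E4 (82.7) differed by 1.55 points, and D3 (62.9) was 18.3 points below WT. At chr8:128585367-128586237 both clones were far below WT, with 33.9 in WT, 1.46 in D3 and 8.56 in E4. At chr8:128576288-128577940 the values were 41.9, 33.4 and 29.1. By fold, both clones stood above WT at this last site, D3 by 5.64 points and E4 by 6.94.

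The 3 unshared regions here were small. WT alone had chr8:128597737-128598369 (−log10 q 1.62, 5.27th percentile). D3 alone had chr8:128626127-128626616 (−log10 q 3.02) and chr8:128637829-128638163 (−log10 q 5.13, 33.4th percentile). The nearest WT peak was 27.8 kb from the first and 39.5 kb from the second of these D3 peaks. No list had a peak in the following 99.3 kb, up to the first region beside MYC.

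MYC itself kept all of its regions: each of the 3 regions within 10 kb was called in WT, D3 and E4. They lie within CASC11, a non-coding RNA gene read from the opposite strand, and over the start of MYC. The outer one, chr8:128737486-128738584, lay 11.2 kb before the middle of the promoter region. It stood at the 62.3rd percentile of WT (fold 6.07, −log10 q 6.93), the 77.4th of D3 (fold 10.8, −log10 q 19.5) and the 71.2nd of E4 (fold 9.39, −log10 q 13.7). On the shared scale both clones stood above WT, D3 by 4.07 points and E4 by 9.18. Of the 22 shared regions, 3 had both clones above WT, and this was the one nearest to MYC.

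The middle region, chr8:128745794-128746939, lay 2.87 kb before the middle of the promoter region and was the strongest peak of the whole stretch in E4. It stood at the 90.5th percentile of E4 (fold 13.9, −log10 q 25.9), the 79.8th of D3 (fold 10.9, −log10 q 21.0) and the 84.3rd of WT (fold 7.46, −log10 q 11.9). On the shared scale E4 was 7.004 points above WT and D3 17.2 points below it. The clones thus stood on opposite sides of WT at the site just upstream of MYC.

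The promoter region, chr8:128748113-128750363, covered the start of MYC. WT had 2 separate peaks there, chr8:128748186-128748755 (570 bp, fold 3.88, −log10 q 3.25) and chr8:128749955-128750330 (376 bp, fold 5.06, −log10 q 6.23). Each clone had 1 broad peak that bridged the interval between these WT peaks, of 2100 bp in D3 (fold 5.48, −log10 q 6.54) and 2222 bp in E4 (fold 6.21, −log10 q 7.25). WT had more peaks than either clone in 1.01% of all regions called in 3 lists. The length covered by peaks was 946 bp in WT, so that D3 covered 2.22 times and E4 2.35 times as much, the largest width ratios of the 22 shared regions for either clone. By −log10 q the region stood at 50.5 in WT, 10.2 in D3 and 37.5 in E4. The WT value is that of its stronger peak, chr8:128749955-128750330. On this value the 40.3 points between WT and D3 were the largest such gap of the stretch. The weaker WT peak, chr8:128748186-128748755, was not ranked among shared regions. Ranked among all WT peaks it reached only 27.8, and the stronger one 57.5. The clone peaks reached 40.9 (D3) and 47.6 (E4) in their own lists, which differ in length. The gap thus does not describe the weaker WT peak. For E4 the gap of 12.99 points fell to −0.23 by fold and turned to −22.47 when −log10 q was multiplied by peak width. For D3 it was 26.6 by fold and 12.2 with width, still with WT higher. Peak shape and rank differed together here, and the part of the width in the rank difference was not tested beyond these values.

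PVT1, the long non-coding RNA gene after MYC, had no region called in all 3 lists. Its span with 10 kb on either side held 5 regions, of which WT alone had 2, E4 alone 2, and D3 together with WT 1. The shared one, chr8:128830052-128831589, stood at the 35.4th percentile of D3 (fold 4.90, −log10 q 5.49) and the 32.7th of WT (fold 4.07, −log10 q 3.65). The nearest E4 peak was 32.7 kb away. WT alone had chr8:129026970-129027334 (fold 5.18, −log10 q 4.74, 44.4th percentile), the strongest peak of PVT1 in its list, and chr8:129078244-129078520 (−log10 q 1.63, 5.46th percentile). The nearest D3 peak to the first lay 106 kb away, and the nearest E4 peak 120 kb away.

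E4 alone had chr8:128864321-128864680 (−log10 q 1.93, 6.99th percentile) and chr8:128906835-128907218 (−log10 q 3.13, 19.0th percentile). Neither clone shared a PVT1 peak with the other. D3 had no peak for 302 kb after its first PVT1 peak, the widest gap of any list in the stretch. Its next peak, chr8:129133085-129133370, lay past the gene and was called in D3 only (−log10 q 3.32, 20.2nd percentile). WT had a single peak between MYC and PVT1, chr8:128775821-128776432 (−log10 q 1.61), which both clones lacked. PVT1 was thus sparse in every list, and no peak downstream of MYC reached a −log10 q of 5 in WT or E4. This value does not mean the same in each list: 47% of WT peaks and 32.5% of D3 peaks lay under it. Within its own list the strongest WT peak of PVT1 stood at the 44.4th percentile and that of D3 at the 35.4th. The lists differ in length.

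The remaining unshared regions lay on the side of FAM84B. D3 alone had chr8:127500376-127501053 (−log10 q 5.37, 34.7th percentile), chr8:127502861-127503283 (−log10 q 3.07), chr8:127930899-127931401 (−log10 q 2.63) and chr8:128059022-128059629 (−log10 q 1.52). Over the whole stretch 17 of the 21 unshared regions had a −log10 q under 5 in each list that called them, against 69.4% of all unshared regions. The other 4 were the CCAT1 peak of WT, 2 D3 peaks and the PVT1 region of D3 and WT.

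Over the 22 shared regions WT ranked higher than the clones more often than the reverse. The median of the differences was 17.8 points for D3 (WT minus clone, quartiles 2.84 and 24.7) and 12.4 points for E4 (−4.30 and 22.4). Over all 32495 shared regions the medians were 0.02 and −0.27. WT was higher than D3 at 17 regions (50.1% of all shared regions) and higher than E4 at 13 (49%). A gap of 10 points or more in favour of WT was found at 14 regions for D3 (26.8% of all shared regions), 12 for E4 (26.5%) and 9 for both clones (14.8%). A gap of that size in favour of the clone was found at 1 region for D3 (26.5%) and 2 for E4 (27.3%). D3 and E4 lay 5 points or more from WT on opposite sides at 5 regions (11.9%).

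**Figure D2:**
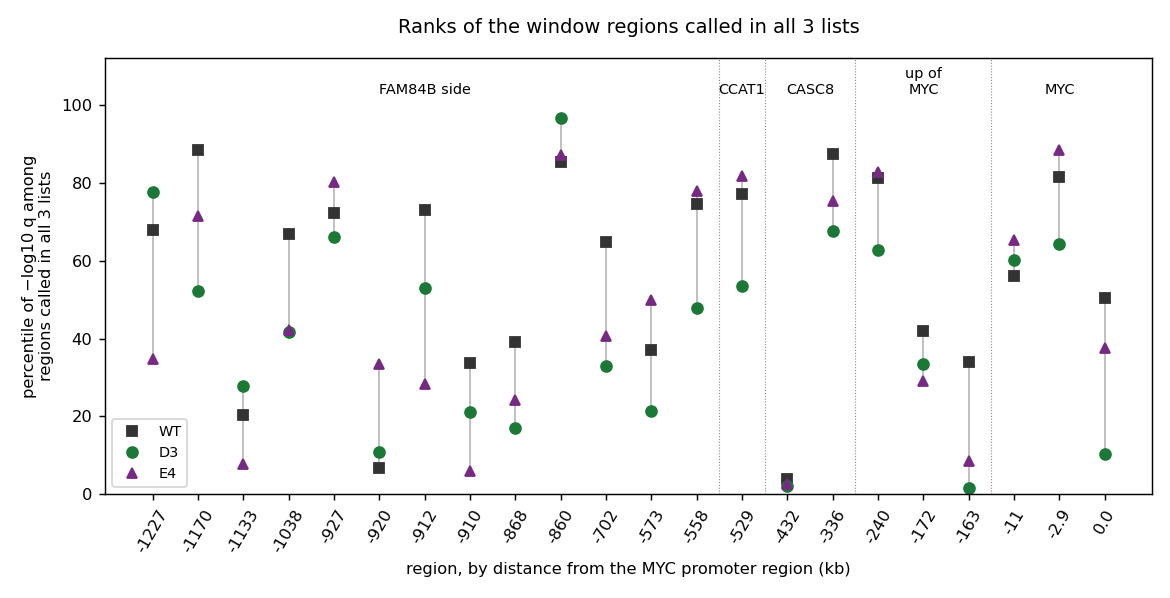
Rank of each of the 22 shared regions, in order along the chromosome. The y axis gives the percentile of −log10 q among the 32495 regions called in all 3 lists, the x axis labels give the distance from the MYC promoter region in kb, and squares, circles and triangles stand for WT, D3 and E4. WT lies above both clones at 11 regions and below both at 3. The promoter region at the right end has D3 at 10.2 and WT at 50.5, the latter from the stronger of 2 WT peaks.

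Gaps of 10 points or more in favour of WT were equally many in both clones except at CCAT1 and MYC, where D3 had slightly more. For D3, 8 of 13 regions on the FAM84B side, 1 of 1 at CCAT1, 1 of 2 at CASC8, 2 of 3 upstream of MYC and 2 of 3 at MYC passed 10 points in favour of WT. For E4 the FAM84B side also gave 8 of 13, CASC8 1 of 2 and the stretch upstream of MYC 2 of 3, while CCAT1 gave 0 of 1 and MYC 1 of 3. Without the FAM84B side the median for E4 was 1.07 points, and for D3 it was 18.3. Among peaks of at least 5 in −log10 q, where 16 shared regions were left, ranks taken anew within that smaller set gave a median of 0.36 for E4 and 26.8 for D3. On the ranks among all shared regions the same 16 regions had a median of 12.5 for E4 and 19.9 for D3. The E4 median over these 16 regions thus depended on the ranking, and the reason was not tested. The order of the regions was similar in all lists, with a Spearman rho of −log10 q of 0.81 between D3 and WT, 0.82 between E4 and WT and 0.74 between D3 and E4. These describe 22 neighbouring sites that share 3 libraries, and over all shared regions the values were 0.79, 0.78 and 0.81.

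**Figure D3:**
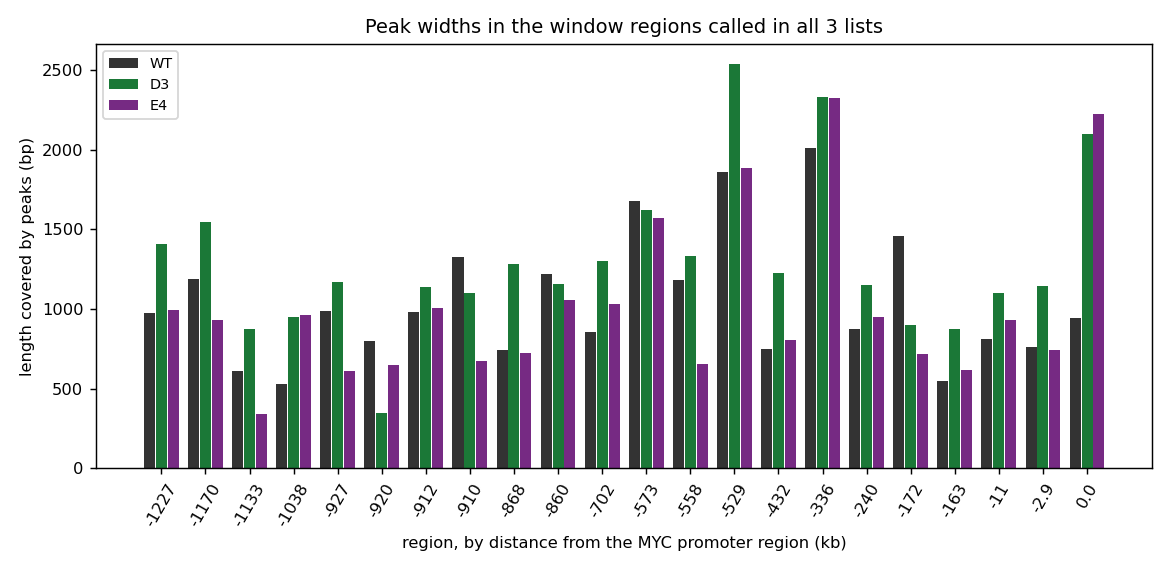
Length covered by the peaks of WT, D3 and E4 in each shared region. The y axis is in bp and starts at 0, and regions stand in order along the chromosome by their distance from the MYC promoter region in kb. The promoter region (0.0) has 2100 bp in D3 and 2222 bp in E4, and 946 bp in WT.

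D3 peaks covered more of the region than WT peaks at 17 of 22 regions (90.9% of all shared regions) and E4 peaks at 11 of 22 (67.4%). The median ratio to WT was 1.34 for D3 and 0.99 for E4, against 1.60 and 1.17 over all shared regions. On chromosome 8 beyond 100 Mb outside the stretch these ratios were 1.39 and 0.89, and in the 5 Mb after it 1.33 and 0.93, so that low ratios were not particular to the stretch. The ratios ranged from 0.43 to 2.22 in D3 and from 0.49 to 2.35 in E4. The lowest D3 ratio was found in the cluster before MYC at chr8:127829164-127830222, with 347 bp in D3, 645 bp in E4 and 800 bp in WT. The lowest E4 ratio was found upstream of MYC at chr8:128576288-128577940, with 718 bp in E4, 898 bp in D3 and 1457 bp in WT.

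**Figure D4:**
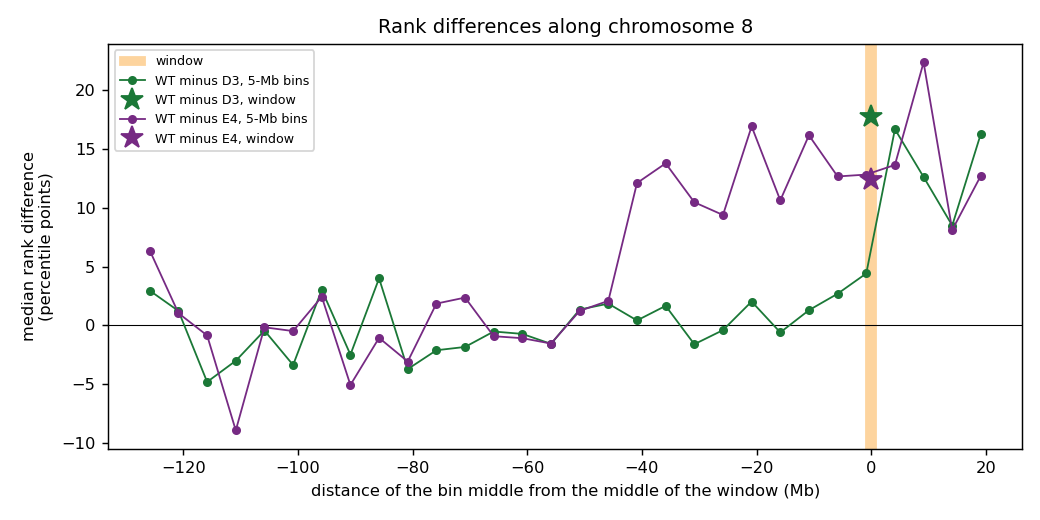
Median rank difference of WT minus each clone along chromosome 8. The x axis gives the distance of the middle of each 5-Mb bin from the middle of the stretch in Mb, the y axis the median over regions called in all 3 lists in percentile points, and stars the 22 regions around MYC. The star of D3 (17.8) lies above its bin (4.42), and that of E4 (12.4) close to its bin (12.8).

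The neighbourhood on chromosome 8 showed similar medians on 1 or both sides. For E4 the median difference was 14.05 points over 76 shared regions in the 5 Mb before the stretch and 12.3 points over 57 regions in the 5 Mb after it. The median of 12.4 points around MYC was close to those on both sides, but the spread differed. WT ranked higher than E4 at 13 of the 22 regions here, against 64 of 76 before and 49 of 57 after. The lower quartile was −4.30 here, against 2.81 before and 5.31 after. For D3 the median was 2.11 before the stretch, 17.8 within it and 17.4 after it. Over the 527 shared regions of chromosome 8 beyond 100 Mb outside the stretch it was 6.01 for D3 and 12.7 for E4, and over the 31005 regions of other chromosomes −0.05 and −0.50. Rank differences and WT-only regions did not always go together. The FAM84B side had none of the latter among 19 regions, and the 5 Mb after the stretch had 3 of 103. Both are near the 2.37% of all regions. What the values around MYC share with the rest of the chromosome arm was not tested.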

How the data were processed

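Peaks of 3 CTCF libraries (D3, E4 and WT, 1 each of the 6 samples) were used. Per the submitters' processing notes, CASAVA 1.8.2, Picard 2.23.1, bedtools 2.29.2, MACS2 2.2.7.1 and the build hg19 were involved. How reads were aligned, peaks called and controls used is not stated in the sources. The authors deposited 1 broadPeak list per library, so peaks were called per sample. Each peak has the authors' fold enrichment, a ratio to the caller's background, and the authors' −log10 p and −log10 q. The deposited score repeats −log10 q and was not used. In the broad output of MACS2 these are averages over the peak, so wide peaks can have lower values. Read depth is unknown.

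Peaks overlapping by 1 bp or more were merged (Python 3.11.15, pandas 2.3.3), and a region's value in a list is that of its strongest peak there. A percentile is the percent of peaks, or of regions called in all 3 lists, with a lower −log10 q. A difference of 10 percentile points was used as a fixed size. Shares carry exact (Clopper-Pearson) 95% intervals (scipy 1.17.1). The code was tested on simulated lists. Gene positions in hg19 were written from general knowledge and carry no exon assignment. All 13 genes were found, in the same order, in a RefSeq table of another assembly.

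All regions of the stretch are named, in full where they are shared and near a listed gene, strongest in a list or largest in rank difference. Members, gene lists and alternatives were chosen with earlier results of these data known. Alternatives were a −log10 q minimum of 5, equal list length, 50% coverage, a distance of 1 kb, ranking by fold, other rank pools and leaving out each zone.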

Additional observations from a re-analysis of the deposited data

Results flagged for a closer look

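At 5 of the 22 shared regions D3 and E4 lay at least 5 percentile points from WT on opposite sides, and this contrast of D3 with E4 was not tested, since each has 1 library. The values below are the gap between WT and E4 less the gap between WT and D3. At chr8:127521866-127523273, the outermost region on the FAM84B side, it was 42.8 points, and at chr8:127615932-127616841 it was 19.95 points, with D3 above WT and E4 below it at both. At chr8:127821752-127822919 it was −14.2 points, at chr8:128174956-128176634 before CASC19 −28.4 points, and at chr8:128745794-128746939 just upstream of MYC −24.2 points, with E4 above WT and D3 below it at these 3. With −log10 q multiplied by peak width, both clones stood below WT at chr8:127615932-127616841, by 2.70 (D3) and 21.6 (E4) points. The same held at chr8:127821752-127822919 (13.7 and 13.8) and chr8:128174956-128176634 (30.6 and 1.83). The outermost region and the one just upstream of MYC kept their sides. By fold all 5 did, with E4 0.61 points above WT at chr8:128174956-128176634. With percentiles from whole lists, which differ in length, both clones stood above WT at 2 of the 5. The gaps to D3 and E4 were −4.57 and −7.42 at chr8:127821752-127822919, and −7.28 and −13.2 at chr8:128174956-128176634. The remaining regions kept their sides.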

How the results depend on the processing

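No paired analysis was possible because each population has a single library, and for the same reason no replicate could be dropped. Of 96 alternatives for the summary values 80 stayed within the interval of the share or within 1.5 times the value, 16 moved and none reversed. This tally is a loose measure, since the intervals rest on 33 WT, 31 D3 and 25 E4 peaks and are wide. The PVT1 side had no region of all 3 lists, so leaving it out could not change a value. With a −log10 q minimum of 5, regions of D3 only numbered 5 and of WT only 1. Their shares over all regions at this minimum are not given. D3 and E4 each overlapped 94.12% of WT peaks, and neither overlapped 5.88%. In the whole WT list, peaks of at least 5 were overlapped by D3 at 99.9%, by E4 at 98.1% and by neither at 0.029%. These genome-wide shares are against clone lists without the minimum. The median rank differences were 26.8 (D3) and 0.36 (E4). For E4, 6 of 16 regions passed 10 points, against 29.5% of the 18407 regions shared at this minimum. At equal list length D3-only regions fell from 8 to 2, and WT overlapped 91.3% of D3 peaks. The shares over all regions at this length are not given. By fold the E4 median was 6.01. With percentiles from whole lists the D3 median was 1.21, with 3 regions past 10 points. This setting compares lists of unequal length, and its share past 10 points over all regions is not given. Without the FAM84B side the E4 median was 1.07, and 6 (D3) and 4 (E4) regions passed 10 points. Of all shared regions 26.8% (D3) and 26.5% (E4) did. Ranking by −log10 q times width was added after seeing the data. Of 248 alternatives for single regions, 196 moved by under 10 points. The sign changed in 24, of which 9 had a gap of 10 points or more in the ranks reported and are given here, and 15 a smaller gap. For chr8:127881047-127882330 the gap to D3 became −1.74 and that to E4 −0.14 with that minimum, and that to D3 −1.35 in whole lists. In whole lists the gap to D3 was also reversed at chr8:127838661-127840305 (−10.1) and chr8:128174956-128176634 (−7.28). At the latter the gap to E4 was 1.83 with width. By fold the gap to E4 was −6.94 at chr8:128576288-128577940 and −0.23 at the MYC promoter region, where it was −22.47 with width. Beyond filtering and list length, the cause was not tested. Without read depth, a weak peak missing from a list cannot be told from one below the limit of detection.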
